A study of Mus musculus with 2 samples.

Results

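The 9 genes described here act on the kinase complex mTORC1 or in autophagy and mitophagy, and they were taken by symbol from the 22587 gene symbols counted in single hippocampal cells of mice with and without the mitochondrial fusion gene Opa1. They are 3 brakes on mTORC1 or on the translation it drives (Ddit4, Sesn2 and Eif4ebp1), the autophagy receptor Sqstm1, the ATG8-family genes Map1lc3b and Gabarapl1, and 3 genes of mitophagy (Bnip3, Bnip3l and Pink1). Each symbol stood for 1 Ensembl identifier in both libraries. In the mouse build GRCm38 (mm10), the brakes lie at chr10:59949669-59951834 (Ddit4), chr4:132492032-132510501 (Sesn2) and chr8:27260329-27276674 (Eif4ebp1), and Sqstm1 at chr11:50199366-50210827. Map1lc3b lies at chr8:121590361-121598760, Gabarapl1 at chr6:129533160-129542346, Bnip3 at chr7:138890836-138909519, Bnip3l at chr14:66985239-67008877 and Pink1 at chr4:138313409-138326307. The question was how the level of each gene differed between the libraries, between cell classes, and between cells with a low and a normal share of mitochondrially encoded transcripts.

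mTORC1 sits on the lysosome, drives protein synthesis and growth when amino acids and growth factors are plentiful, and holds autophagy off. Ddit4 (REDD1) acts through the TSC complex and Sesn2 through the GATOR2 complex to lower mTORC1 activity. Eif4ebp1 encodes 4E-BP1, which holds back the cap-binding factor eIF4E until mTORC1 phosphorylates it. All 3 are textbook targets of ATF4, the transcription factor of the integrated stress response (ISR), which damaged mitochondria can switch on. In autophagy, lipid-bound LC3 and GABARAP proteins coat the growing membrane, the receptor p62 (Sqstm1) ties cargo to it, and mitochondria are handed over either through the outer membrane receptors BNIP3 and NIX (Bnip3l) or through the kinase PINK1. Only mRNA was counted, so neither kinase activity nor autophagic flux was measured.

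Both groups carried 1 copy of Nestin-CreERT2, in which the Nestin promoter drives a tamoxifen-dependent Cre, and a Rosa26 YFP reporter that Cre switches on, all on a C57BL/6 background. Opa1 cKO mice also carried floxed Opa1, and control (CT) mice did not, although 1 strain description, with Opa1-Flox in it, stands on both samples. Both groups took tamoxifen (TAM) by gavage at 200 mg/kg a day for 5 days from 8 weeks of age and were collected at 12 weeks, 4 weeks post-TAM. Hippocampi of 3 mice of both sexes were pooled into 1 library per genotype, and live YFP+ cells were sorted and sequenced with a 3′ droplet assay. The sort, and a later filter on at least 1 YFP transcript, aim at cells in which the Nestin promoter was active at TAM and at their descendants. Whether each kept cell was such a cell was not tested.

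There was thus 1 library per genotype and no replicate. No difference between genotypes was tested, every 95% interval below covers the counting error of UMIs or cells only, and a mouse, sort or library effect cannot be told apart from the genotype. A difference of at least 1.5-fold in the point value is used only as a rule of size.

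The CT library held 4634 barcodes and 10799936 UMIs, and the Opa1 cKO library 6475 barcodes and 18662032 UMIs. After the filters on genes, mitochondrial share and a YFP transcript, 1790 CT cells (median 2555 UMIs) and 3764 Opa1 cKO cells (median 3008 UMIs) remained. The libraries had 36 barcodes in common, 9 of them among kept cells. Opa1 itself stood at 18.5 CPM (UMIs of the gene per 1000000 UMIs; 70 UMIs) in CT cells of the NSC pool-like class, described next, against 7.99 CPM (68 UMIs) in those of Opa1 cKO, and the log2 ratio was −1.21 (95% interval −1.72 to −0.71). A 3′ assay also counts transcripts that lack the deleted exons, so this is a weak check of the deletion.

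Cells fell into 7 classes by their markers. The largest, the NSC pool-like class (radial glia-like stem cells together with astrocytes, which the markers did not separate), had 1378 CT and 2591 Opa1 cKO cells and all 12 of its markers detected. Of its UMIs, 5.90% came from mitochondrially encoded (mt-) transcripts in CT, against 2.16% in Opa1 cKO. By the share in each cell, 1581 Opa1 cKO and 2 CT cells were low (under 1%), 768 and 1269 were normal (3% or more), and 242 and 107 lay between. The class was drawn mostly from 1 cluster in CT and from another in Opa1 cKO, and the second held 3 CT and 1800 Opa1 cKO cells and was led by Nupr1, Acsbg1, Gdf15, Slc7a11 and Aldoc, so the comparison within the class is largely one between these clusters.

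Promoters are shown for 4 members because they differ in whether they hold the hypoxia element (ACGTG or GCGTG, as in genes of the HIF pathway) or the antioxidant element (TGACNNNGC). Each window runs from 250 bases before to 50 after the RefSeq start, in GRCm38.p6, 5′ to 3′ on the gene's own strand, and capitals mark a hypoxia or antioxidant element on either strand. Sesn2 lies on the minus strand at chr4:132510407-132510706, Ddit4 on the minus strand at chr10:59951721-59952020, Bnip3 on the minus strand at chr7:138909457-138909756 and Gabarapl1 on the plus strand at chr6:129532942-129533241.
Sesn2: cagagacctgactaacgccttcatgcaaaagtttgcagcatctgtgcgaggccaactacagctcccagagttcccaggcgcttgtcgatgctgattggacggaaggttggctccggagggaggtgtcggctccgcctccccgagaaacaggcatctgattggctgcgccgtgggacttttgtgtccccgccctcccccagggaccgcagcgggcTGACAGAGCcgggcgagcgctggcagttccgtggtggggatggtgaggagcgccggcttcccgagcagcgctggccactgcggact
Ddit4: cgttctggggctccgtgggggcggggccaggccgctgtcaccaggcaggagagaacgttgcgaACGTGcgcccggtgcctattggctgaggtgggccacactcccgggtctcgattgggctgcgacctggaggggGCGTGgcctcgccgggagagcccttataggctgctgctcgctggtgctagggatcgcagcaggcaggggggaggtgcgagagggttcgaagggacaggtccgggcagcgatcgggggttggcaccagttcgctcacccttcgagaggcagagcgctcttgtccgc
Bnip3: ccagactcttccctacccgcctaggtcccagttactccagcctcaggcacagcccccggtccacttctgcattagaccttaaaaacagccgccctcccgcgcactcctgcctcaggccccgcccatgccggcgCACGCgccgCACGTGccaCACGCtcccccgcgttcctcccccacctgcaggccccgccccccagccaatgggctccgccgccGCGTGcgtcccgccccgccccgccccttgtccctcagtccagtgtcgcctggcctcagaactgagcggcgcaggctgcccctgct
Gabarapl1: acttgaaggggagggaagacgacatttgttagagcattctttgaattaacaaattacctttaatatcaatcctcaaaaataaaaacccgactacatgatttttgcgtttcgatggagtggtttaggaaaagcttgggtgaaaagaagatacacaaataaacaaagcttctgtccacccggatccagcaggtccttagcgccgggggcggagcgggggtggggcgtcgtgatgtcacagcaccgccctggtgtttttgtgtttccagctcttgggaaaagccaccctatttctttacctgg

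Of the 9 members, 7 were matched to a promoter window, and Eif4ebp1 and Bnip3l were not. The hypoxia element stood in the windows of Ddit4, Bnip3, Map1lc3b and Pink1, and in 43.8% of all 32851 promoters. In Bnip3, 1 of the marked stretches is CACGTG, which contains ACGTG on both strands and stood in 7.15% of all promoters. The antioxidant element stood in the windows of Sesn2 and Map1lc3b and in 12.4% of all promoters. The C/EBP-ATF element (TGATGNAA) stood in 0 of the 7 windows and in 3.97% of all promoters, and the FOXO element (GTAAACA) likewise in 0 of the 7 and in 3.65% of all. A match is a string of letters in this window and not a site shown to be bound.

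In the NSC pool-like class, Sesn2 and Eif4ebp1 differed most between the libraries, and Ddit4, the third brake, hardly differed. Sesn2 stood at 10.1 CPM in CT (7.12 to 13.8; 38 UMIs) against 36.2 CPM in Opa1 cKO (32.3 to 40.5; 308 UMIs), which is 3.60-fold higher (log2 ratio 1.85, 1.36 to 2.37). Eif4ebp1 stood at 28.6 CPM in CT (23.4 to 34.5; 108 UMIs) against 199.9 CPM in Opa1 cKO (191 to 209.7; 1702 UMIs), with a log2 ratio of 2.81 (2.53 to 3.101). The intervals of the libraries lay far apart for both genes. Ddit4, which glucocorticoids and low oxygen are also known to induce, stood at 188 CPM in CT (175 to 203) against 207 CPM in Opa1 cKO (197 to 217), so that its log2 ratio was 0.14 (0.01 to 0.26). Set against the median of the genes with at least 300 UMIs, which was itself 0.14 higher, Ddit4 came to −0.01, so its direction depended on the scaling.

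The receptor and the ATG8-family genes stood higher in Opa1 cKO by smaller amounts. Sqstm1 was at 169 CPM in CT (156 to 183) against 265 CPM in Opa1 cKO (254 to 276), with a log2 ratio of 0.65 (0.52 to 0.78). Map1lc3b, which encodes LC3B, was at 406 CPM (386 to 427) and 554 CPM (538 to 569.9), a log2 ratio of 0.45 (0.37 to 0.53), below 1.5-fold. Gabarapl1 was at 61.9 CPM (54.2 to 70.4) and 102 CPM (95.6 to 109), a log2 ratio of 0.72 (0.51 to 0.94). None of these intervals overlapped between the libraries. How many of all genes parted in this way is not given, so the gaps here and for Sesn2 and Eif4ebp1 do not set the members apart from other genes.

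Of the mitophagy genes, only the kinase gene stood apart between the libraries. Pink1 was at 78.9 CPM in CT (70.2 to 88.3) against 119.6 CPM in Opa1 cKO (112 to 127), with a log2 ratio of 0.60 (0.41 to 0.79). Bnip3 was at 84.7 CPM (75.7 to 94.5) and 83.8 CPM (77.7 to 90.1), a log2 ratio of −0.02 (−0.21 to 0.18). Bnip3l was at 164 CPM (151 to 177) and 171 CPM (162 to 179.7), a log2 ratio of 0.06 (−0.08 to 0.20). For both receptors the intervals overlapped, and the intervals of the ratio left room for small differences either way.

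Taking the 9 together, 5 (Sesn2, Eif4ebp1, Sqstm1, Gabarapl1 and Pink1) were at least 1.5-fold higher in the Opa1 cKO library and 0 were that much lower. Among the 10100 genes with at least 50 UMIs in the class, 12.9% were at least 1.5-fold higher and 11.6% that much lower. The median log2 ratio was 0.60 over the members and 0.04 over all those genes. Pink1 and Sqstm1 lay just above the 1.5-fold line, and the count came to 2 when ratios were set against the median of well counted genes and to 3 when each cell's own CPM was averaged.

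**Figure D1:**
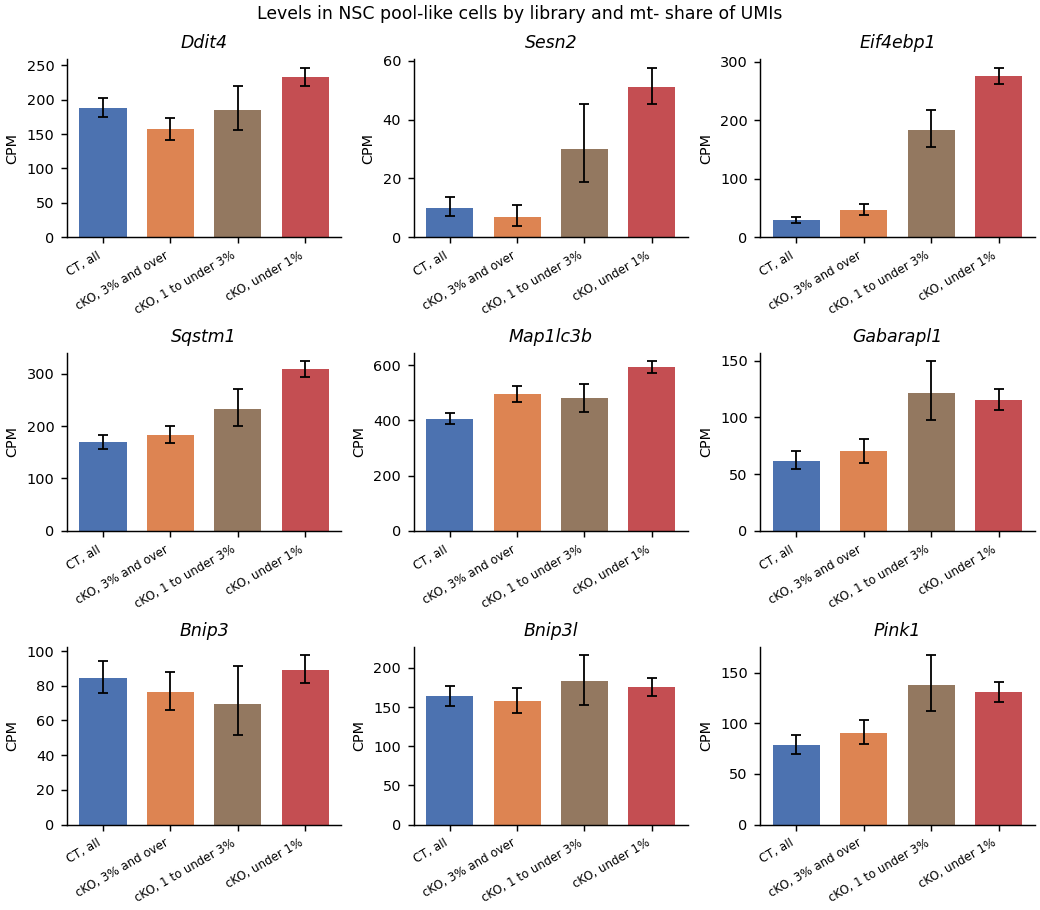
Level of each of the 9 genes, in CPM, in NSC pool-like cells, with 1 panel per gene and 1 bar each for all CT cells and for Opa1 cKO cells of normal (3% or more), intermediate (1 to 3%) and low (under 1%) mt- share; error bars are 95% Poisson intervals for counting only, with 1 library per genotype. For Eif4ebp1 the bars run from 28.6 CPM in CT to 46.7, 184 and 276 CPM in the Opa1 cKO cells, whereas those of Bnip3 stay between 69.6 and 89.3 CPM.

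Within the Opa1 cKO library, the mt- share separated the same genes, in cells that shared sort and library. The cells came from 3 pooled mice and were not assigned to a mouse, so a difference between mice was not separated from one in mt- share. Between the 768 cells of normal and the 1581 cells of low share, Sesn2 went from 6.73 CPM (3.92 to 10.8; 17 UMIs) through 30.01 CPM in the intermediate cells to 51.2 CPM (45.3 to 57.7; 269 UMIs), a log2 ratio of 2.93 (2.22 to 3.73). Eif4ebp1 went from 46.7 CPM (38.7 to 56.0) through 184 CPM to 276 CPM (262 to 290.3), a log2 ratio of 2.56 (2.29 to 2.84). Both brakes were thus ordered normal, intermediate, low, with intervals that did not overlap between neighbours for Eif4ebp1 and touched narrowly for Sesn2.

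Ddit4, which hardly differed between the libraries as wholes, did differ along the mt- share. It was at 157 CPM (142 to 173) in the normal, 186 CPM (156 to 219) in the intermediate and 234 CPM (221 to 247) in the low cells, a log2 ratio of low over normal of 0.57 (0.41 to 0.74). CT cells of normal share held 190.3 CPM (176 to 205) and so lay between the normal and the low cells of the Opa1 cKO library.

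The autophagy and mitophagy genes followed with smaller steps. Sqstm1 was at 183 CPM in the normal and 308 CPM in the low cells, a log2 ratio of 0.75 (0.60 to 0.90). Gabarapl1 was at 70.1 and 115 CPM, a ratio of 0.72 (0.47 to 0.97). Pink1 was at 90.7 and 131 CPM, a ratio of 0.53 (0.31 to 0.75). In the intermediate cells Gabarapl1 (121 CPM) and Pink1 (138 CPM) already stood at the level of the low cells, within the counting error, while Sqstm1 (233 CPM, 199.6 to 271) lay between. Map1lc3b (0.26, 0.17 to 0.36), Bnip3 (0.22, −0.02 to 0.47) and Bnip3l (0.15, −0.02 to 0.32) had the smallest log2 ratios.

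In this comparison 4 of the 9 genes (Sesn2, Eif4ebp1, Sqstm1 and Gabarapl1) were at least 1.5-fold higher in the low cells and 0 were that much lower, beside 22.2% and 4.39% of 9172 genes. Other transcripts fill a larger part of all UMIs where the mt- share is lower, so the ratios were also computed on CPM without mt- transcripts. The median over the members then stayed within the counting interval of its middle member, Ddit4 (0.41 to 0.74). The median log2 ratio was 0.57 over the members, 0.25 over all genes and 0.28 over those with at least 300 UMIs. Set against the last, Map1lc3b (−0.02), Bnip3 (−0.05) and Bnip3l (−0.13) fell on the other side of 0, the median of the members was 0.30, and 2 genes stayed past 1.5-fold.

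**Figure D2:**
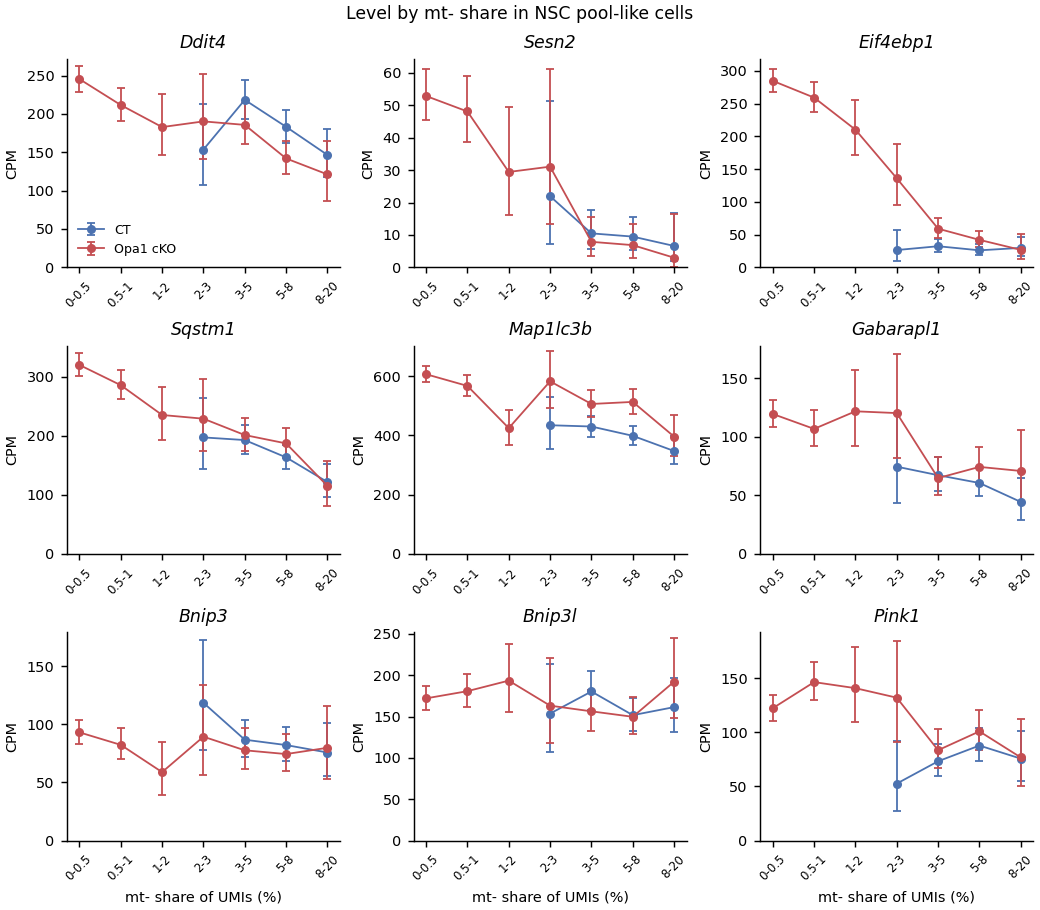
Level of each gene, in CPM, by the mt- share of the NSC pool-like cell in bins of 0 to 0.5, 0.5 to 1, 1 to 2, 2 to 3, 3 to 5, 5 to 8 and 8 to 20% of UMIs, with CT and Opa1 cKO drawn separately and bars for 95% counting intervals. Eif4ebp1 in Opa1 cKO cells declines from 285 CPM in the lowest bin to 26.6 CPM in the highest, and in the bins CT fills it stays between 25.9 and 32.2 CPM.

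The finer bins showed where the steps lay. In the Opa1 cKO library Eif4ebp1 stood at 285, 259, 210.3, 136, 59.0, 41.9 and 26.6 CPM from the lowest to the highest bin. In CT it stood at 26.3, 32.2, 25.9 and 29.6 CPM in the bins from 2% upwards. The libraries therefore met in the highest bin and parted below it. Sqstm1 declined over the bins in both libraries, from 320.3 CPM in the lowest to 115 CPM in the highest bin in Opa1 cKO, and from 198 CPM at 2 to 3% to 122 CPM at 8 to 20% in CT.

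Restricted to cells of normal mt- share, 1269 from CT and 768 from Opa1 cKO, the libraries differed little in most members. Eif4ebp1 was at 28.9 CPM in CT (23.6 to 35.1) against 46.7 CPM in Opa1 cKO (38.7 to 56.0), with a log2 ratio of 0.69 (0.30 to 1.09). It was the 1 member of 9 at least 1.5-fold higher, with 0 that much lower, beside 2.19% and 14.3% of 8678 genes. Map1lc3b was at 402 and 495 CPM, a ratio of 0.30 (0.19 to 0.41), and Ddit4 at 190.3 and 157 CPM, a ratio of −0.28 (−0.46 to −0.10). Sesn2 rested on 33 and 17 UMIs (9.36 and 6.73 CPM), a ratio of −0.47 (−1.41 to 0.41), so a difference of this size was not detectable at this depth. The other 5 members had log2 ratios between −0.12 and 0.21. The median was 0.13 over the members and −0.11 over all genes, and Opa1 in these cells was at 18.1 and 11.5 CPM.

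**Figure D3:**
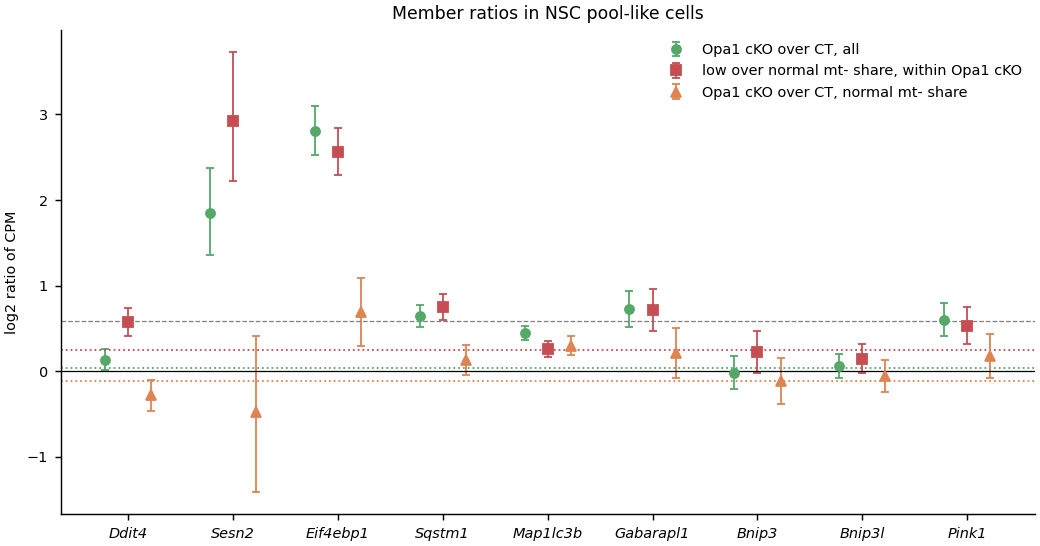
Log2 ratio of each gene, with its 95% counting interval, in 3 comparisons of NSC pool-like cells: Opa1 cKO over CT, low over normal mt- share within Opa1 cKO, and Opa1 cKO over CT among cells of normal mt- share; dotted lines mark the median of all genes with at least 50 UMIs and dashed lines 1.5-fold. Sesn2 reads 1.85, 2.93 and −0.47 and Bnip3 reads −0.02, 0.22 and −0.12.

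Counted by cell, all 3 brakes were detected in a larger share of the low Opa1 cKO cells than of CT cells. With every cell thinned to 1500 UMIs, Eif4ebp1 had a UMI in 3.50% of CT NSC pool-like cells (2.57 to 4.66), in 6.11% of the Opa1 cKO cells of normal share (4.49 to 8.09) and in 30.7% of those of low share (28.3 to 33.1). Unthinned, the shares were 6.68, 12.1 and 53.1%. In oligodendrocyte-like cells, which were deeper (median 3767.5 UMIs in CT and 3914 in Opa1 cKO, against 2494 and 2962 in the NSC pool-like class), it had a UMI in 0 of 74 and 0 of 101 thinned cells, with Clopper-Pearson upper limits of 4.86 and 3.59%, and unthinned in 0 and 2.97%. The share in the low cells thus lay well above that in a class where the gene was hardly found. Sesn2 had a UMI in 1.40% (0.833 to 2.21) of thinned CT, 0.678% (0.221 to 1.58) of normal and 7.09% (5.82 to 8.53) of low Opa1 cKO cells, and in 0 thinned oligodendrocyte-like cells of either library. Ddit4 had one in 22.6% (20.3 to 25.0), 20.4% (17.5 to 23.4) and 30.7% (28.3 to 33.1), beside 35.1 and 15.8% of oligodendrocyte-like cells of CT and Opa1 cKO. In the normal cells the point values of Sesn2 and Ddit4 thus lay below CT, with overlapping intervals.

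The members were also found together more often in the low cells. Joint detection rises wherever the single genes are detected more often. It was not compared with what the single shares would give, so it does not show that the genes rise in the same cells. In thinned cells of the NSC pool-like class, the mean number of the 9 genes with a UMI was 1.43 in CT cells of normal share, 1.57 in Opa1 cKO cells of normal share and 2.30 in those of low share. At least 4 of the 9 had a UMI in 2.11% (1.37 to 3.104), 3.66% (2.43 to 5.29) and 16.9% (15.0 to 18.9) of the same cells. At least 2 of the 3 brakes had one in 0.761% (0.348 to 1.44), 1.63% (0.844 to 2.83) and 12.9% (11.2 to 14.7), so for both measures the low cells lay apart from the cells of normal share in either library. The intermediate Opa1 cKO cells, at 14.3% (9.78 to 19.9) and 10.3% (6.52 to 15.4), overlapped the low cells.

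Other genes of the ISR stood higher in the same cells. Of 23 ATF4 targets with enough UMIs in the NSC pool-like class, 22 were at least 1.5-fold higher in Opa1 cKO and 0 lower, with a median log2 ratio of 1.98, and in the low over the normal cells all 23 were, with a median of 1.97. The exception between the libraries was Gpt2, an alanine aminotransferase, at −0.03. The list holds none of the 9 members, and part of it was chosen by the study on these samples, so its direction is not independent evidence. When the 1581 low cells were ranked by the share of their UMIs in ATF4 targets, the upper 527 held more Sesn2 (log2 ratio over the lower 527 of 0.77) and Eif4ebp1 (0.54, 0.35 to 0.73) and less Pink1 (−0.35, −0.63 to −0.07), with Ddit4 at 0.26; 391 and 461 cells lay within 10% of the boundaries.

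Sums of markers listed for other cell types also differed between the groups of the class. The summed markers of oligodendrocyte precursors were at 97.7 CPM in CT against 285 CPM in Opa1 cKO (357 in the low and 117 in the normal cells), nearly all of it Olig1 (91.0 and 281 CPM), while the defining markers Pdgfra and Gpr17 were at or near 0. Summed erythrocyte markers were at 280.2 CPM in CT against 9.05 CPM in Opa1 cKO, and summed microglial markers at 15.6 against 31.8 CPM. Their part in the members' values was not tested.

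Most of the remaining genes of the mTORC1 pathway had smaller ratios than Sesn2 and Eif4ebp1. The list counts between the libraries, here and below, are to be read beside the shares of all 10100 genes. Of those, 12.9% were at least 1.5-fold higher and 11.6% that much lower. Of 18 other brakes, 1 was at least 1.5-fold higher in the Opa1 cKO NSC pool-like class and 3 that much lower, with a median log2 ratio of −0.13. The higher one was Trib3, the pseudokinase that restrains Akt, with 714 UMIs in the Opa1 cKO cells and 0 in those of CT, which makes the log2 ratio at least 6.72 when 3 UMIs over the CT group are taken as the floor. The lower ones were Castor2 (−0.90), the GATOR1 subunit gene Depdc5 (−0.996) and the mTOR-binding inhibitor Deptor (−0.72). Of 23 core and activating genes, 3 were higher (Lamtor3 0.69, Rheb 0.66 and the cap-binding factor Eif4e 0.60) and 1 lower (Fnip1, a folliculin partner, −0.81), with a median of 0.16.

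Autophagy genes are given here by step, without a test between steps. Of 14 genes of the ATG8 family and its conjugation, 4 were at least 1.5-fold higher and 0 lower (median 0.35), and these were Atg10 (0.68), Atg5 (0.68), Atg12 (0.66) and Atg3 (0.65), all parts of the machinery that joins ATG8 proteins to lipid. Atg3 is named although its value was seen first. Of 19 genes of initiation, 2 were higher (Nrbf2 0.74 and Wdr45b 0.63) and 2 lower, the kinase gene Ulk2 (−0.67) and Atg2b (−0.65), with a median of −0.22. Of 11 other receptors 0 were higher and 0 lower (median 0.09), with Tax1bp1 at 0.41 and Calcoco1 at −0.55. The 23 lysosomal genes had a median of 0.25.

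The 21 other mitophagy genes had a median of 0.30. Among those at least 1.5-fold higher were the outer membrane channel genes Vdac3 (1.09) and Vdac2 (0.62) and the mitochondrial ubiquitin ligase gene March5 (0.76), Vdac2 being named although its value was seen first.

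Targets of other known inducers of the members, and immediate early genes, are given next, again beside 12.9% of all genes higher and 11.6% lower. Of 9 HIF targets 0 were at least 1.5-fold higher and 2 lower, Vegfa (−1.09) and Kdm3a (−0.68), with a median of 0.12, beside Ddit4, Bnip3 and Bnip3l, which belong to the same textbook response. Of 11 glucocorticoid-responsive genes 1 was higher, the cell cycle inhibitor Cdkn1a (5.27), and 3 lower, Per1 (−1.63), Pdk4 (−1.16) and Tsc22d3 (−0.64), with a median of −0.26. Of 13 FOXO targets 1 was higher, Klf2 (1.18), and 1 lower, Bcl6 (−1.32), with a median of −0.23. Of 11 immediate early genes, which dissociation can induce, 2 were higher, Klf2 and Socs3 (2.24), and 1 lower, Nr4a1 (−1.86), with a median of 0.27. Atg2b, Klf2, Socs3 and Nr4a1 had under 100 UMIs each and are named although their values were seen first. Sesn1 and Sesn3 stand in both the brake and the FOXO list, and Klf2 in both the FOXO and the immediate early list.

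**Figure D4:**
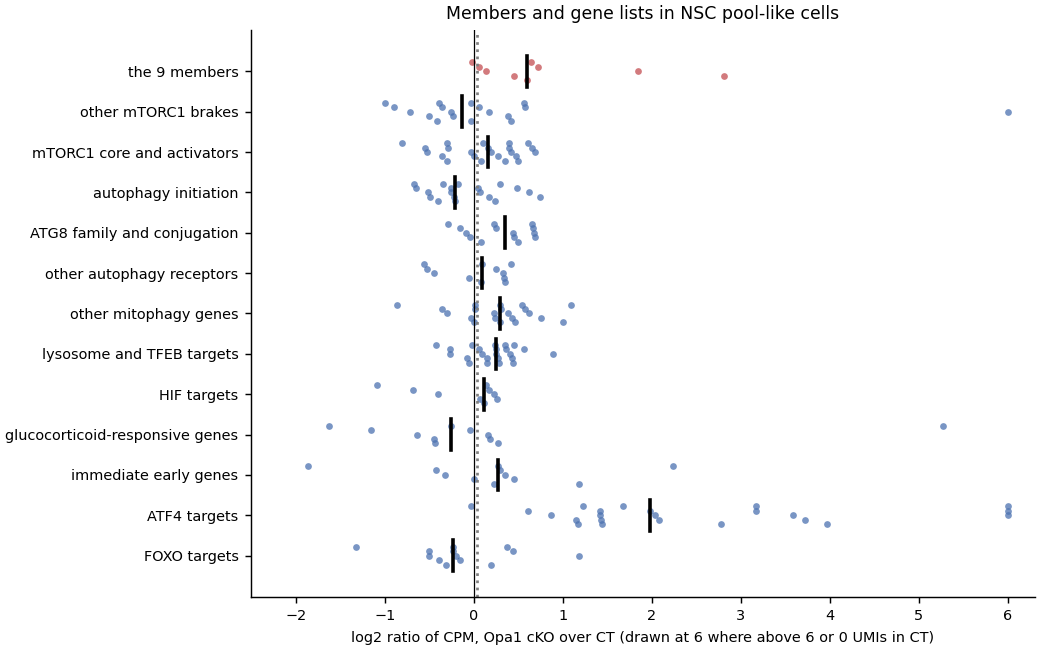
Log2 ratio, Opa1 cKO over CT in NSC pool-like cells, of every gene of the 9 members and of the 12 lists, 1 point per gene, with a black bar at each list's median and values above 6, or with 0 UMIs in CT, drawn at 6. The ATF4 targets have a median of 1.98 and the other mTORC1 brakes one of −0.13.

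Along the mt- share within Opa1 cKO, the counts of each list are to be read beside the 22.2% of all genes at least 1.5-fold higher in the low cells and the 4.39% lower. Low over normal, 2 of 18 other brakes were at least 1.5-fold higher, Trib3 (3.74) and the AMPK-activating kinase gene Stk11 (0.83), and 1 lower, Deptor (−0.84), with a median of 0.04. Of 22 core genes 5 were higher, the Rag GTPase genes Rragc (0.74) and Rragd (1.01), Flcn (0.64), Eif4e (0.69) and Akt1 (0.93), with a median of 0.36.

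Of the autophagy genes, initiation stood at the share of all genes. Of 18 initiation genes 4 were higher, Nrbf2 (0.86), Ambra1 (0.75), Wdr45b (0.68) and Atg101 (0.63), with a median of 0.24. Of 14 ATG8 and conjugation genes 6 were higher, the 4 named above and the protease genes Atg4b (0.92) and Atg4c (1.00), with a median of 0.49. Of 11 other receptors 2 were higher, Tollip (0.74) and Tax1bp1 (0.59), with a median of 0.26. Of 21 lysosomal genes 3 were higher and 1 lower, with a median of 0.32. Among the higher ones were the proton pump subunit gene Atp6v1a (0.60) and the membrane protein gene Lamp2 (0.59), and the lower one was the protective protein gene Ctsa (−0.60).

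Of 21 other mitophagy genes 6 were higher in the low cells, with a median of 0.40. These were the fusion gene Mfn2 (1.05), the receptor genes Bcl2l13 (0.97) and Fundc1 (0.69), Vdac3 (0.78), the phosphatase gene Pgam5 (0.75) and March5 (0.71). Among targets of other inducers, 1 of 9 HIF targets was higher (P4ha1, 0.66, median 0.25), 2 of 11 glucocorticoid-responsive genes were higher (Cdkn1a, 3.77, and Klf9, 0.64) and 2 lower (Per1, −0.61, and Sult1a1, −1.46, median −0.03), 1 of 12 FOXO targets was higher (Irs2, 0.89) and 1 lower (Txnip, −0.72, median −0.01), and 0 of 9 immediate early genes were higher and 1 lower (Btg2, −0.60, median −0.18). The list genes of this comparison were named for passing 1.5-fold, after their values were seen. Where a count of higher genes is given without one of lower genes, the latter was 0, and the median of all genes in this comparison was 0.25.

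Outside the NSC pool-like class, Eif4ebp1 was the member that most often stood higher in Opa1 cKO. In progenitor- and neuron-like cells (139 CT and 171 Opa1 cKO), it was at 35.6 CPM (20.3 to 57.7) and 109 CPM (84.1 to 139), a log2 ratio of 1.62 (0.81 to 2.50). Ddit4 was at 88.9 CPM (63.5 to 121) and 183 CPM (149.99 to 220.3), a log2 ratio of 1.04 (0.50 to 1.60). Within the Opa1 cKO cells of this class Ddit4 stood at 259 CPM in those of low and 105 CPM in those of intermediate mt- share. Eif4ebp1 stood at 129 CPM (91.1 to 178) and 109 CPM (71.3 to 160) in the same groups, with overlapping intervals. Sesn2 rested on 3 and 13 UMIs, a ratio of 1.71 (−0.16 to 4.16). The other 6 members lay between −0.10 (Pink1) and 0.37 (Gabarapl1). Of the 9, 3 were at least 1.5-fold higher and 0 lower, beside 13.1% and 15.3% of 3917 genes, with a median of 0.26.

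In ependymal-like cells (39 CT and 244 Opa1 cKO) the ATG8-family gene and the receptor led instead. Map1lc3b was at 192 CPM (119 to 293) and 427 CPM (387 to 471), a log2 ratio of 1.16 (0.52 to 1.86). Sqstm1 was at 128 CPM (69.9 to 215) and 239 CPM (209 to 272), a ratio of 0.90 (0.13 to 1.80). With Ddit4 (0.66) and Eif4ebp1 (0.64), which rested on 4 and 2 CT UMIs, 4 of the 8 members with a value were at least 1.5-fold higher and 0 lower, beside 20.7% and 12% of 3697 genes. Sesn2 had 6 UMIs in Opa1 cKO cells and 0 in CT cells. Of the Opa1 cKO cells of this class, 173 were of low mt- share. In them Eif4ebp1 stood at only 31.0 CPM (18.9 to 47.9; 20 UMIs) and Sesn2 at 4.65 CPM (0.959 to 13.6; 3 UMIs). The low NSC pool-like cells held 276 and 51.2 CPM, so a low mt- share did not go with high levels of these brakes in every class.

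Vascular cells among the sorted cells showed the difference in Eif4ebp1. In mural-like cells (94 and 168) it was at 24.5 CPM (6.67 to 62.7; 4 UMIs) and 159.8 CPM (120.4 to 208; 55 UMIs), a log2 ratio of 2.71 (1.27 to 4.63), and in Opa1 cKO at 331, 113 and 50.1 CPM in cells of low, intermediate and normal mt- share. In endothelial-like cells (55 and 89) it was at 38.6 CPM (17.7 to 73.4) and 98.5 CPM (69.7 to 135), a ratio of 1.35 (0.28 to 2.58). Endothelial-like Opa1 cKO cells of intermediate mt- share held 148 CPM and those of normal share 52.2 CPM of it. The level of Eif4ebp1 was therefore above CT in both vascular classes, though on few CT UMIs.

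Oligodendrocyte-like cells (74 and 101) differed from the rest. Eif4ebp1 had 3 UMIs in Opa1 cKO cells and 0 in CT cells. Ddit4 was at 239.6 CPM (186 to 303) in CT against 101 CPM (73.4 to 136) in Opa1 cKO, with a log2 ratio of −1.25 (−1.83 to −0.68). Bnip3l, which was at 931 CPM (823 to 1049) and 789.6 CPM (708 to 878) and so higher here than in any other class, had a ratio of −0.24 (−0.47 to −0.00). Activated NSC-like cells numbered 11 in CT and 400 in Opa1 cKO, so the CT values rest on a few UMIs: Eif4ebp1 had 0 UMIs in CT, where 3 UMIs would be 104 CPM, against 175 CPM (153 to 199.5) in Opa1 cKO, and the median log2 ratio was 0.64 over 8 members with a value. In these Opa1 cKO cells Eif4ebp1 stood at 212 CPM (167 to 266) at low mt- share. At intermediate and normal share it stood at 164 CPM (137 to 196) and 138 CPM (84.4 to 213), and the intervals overlapped.

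**Figure D5:**
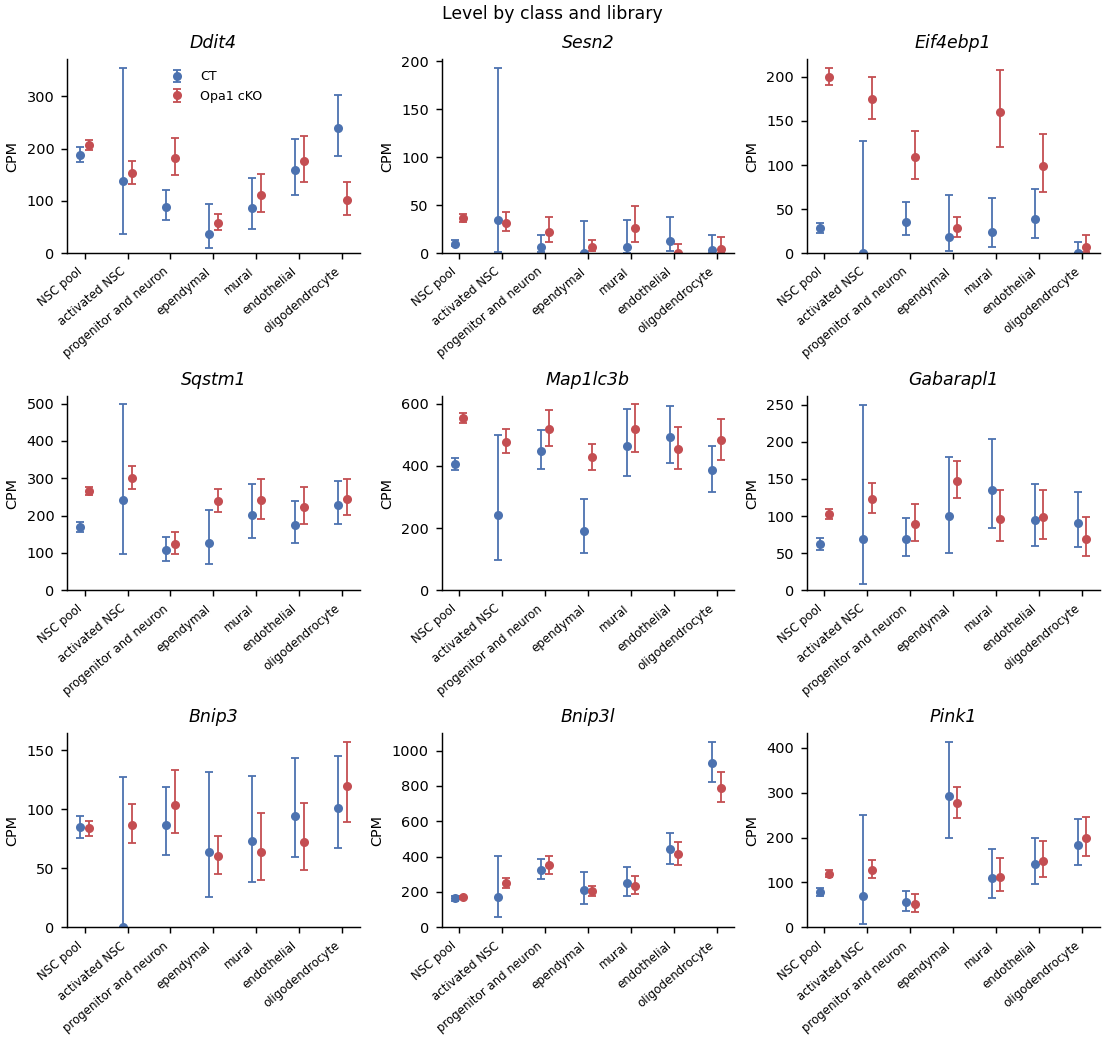
Level of each gene, in CPM, in the 7 cell classes, with CT and Opa1 cKO side by side and 95% counting intervals. Eif4ebp1 stands highest in NSC pool-like cells of Opa1 cKO at 199.9 CPM and lowest in oligodendrocyte-like cells, where it has 0 and 3 UMIs, and Bnip3l stands highest in oligodendrocyte-like cells at 931 and 789.6 CPM.

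Ranked over classes, each member had its own profile, described here within 1 gene at a time. Pink1 was highest in ependymal-like cells (292 CPM in CT and 277 in Opa1 cKO) and lowest in progenitor- and neuron-like cells (55.6 and 52.0 CPM), and these did not overlap. Bnip3l was second highest in endothelial-like cells (442 and 415 CPM). Bnip3 stayed between 60.0 and 119 CPM in all classes with more than 11 cells a library, and neighbours in its order overlapped. Over the 14 points of 7 classes by 2 libraries, the genes of 7149 whose log level was most like a member's were Krtcap2 for Eif4ebp1 (Pearson's r = 0.91), Srr for Sesn2 (0.89), Lipe for Ddit4 (0.82), Ddrgk1 for Sqstm1 (0.89), Gatc for Map1lc3b (0.94), Akip1 for Gabarapl1 (0.77), Zfp560 for Bnip3 (0.95), App for Bnip3l (0.94) and Ubl3 for Pink1 (0.94). The points share libraries and differ in depth, so these likenesses are descriptions. Among the points is the activated NSC-like class of CT, with 11 cells and 28943 UMIs, in which Bnip3 and Eif4ebp1 had 0 UMIs. How far the likenesses, above all that of Bnip3, rest on this point was not tested.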

How the data were processed

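1 library per genotype of sorted hippocampal cells was analysed. The authors deposited raw UMI counts per gene and barcode, made with Cell Ranger 2.1.1 against mm10 according to the submitters' processing notes, although the matrix header names a later software version. The members and lists were chosen with earlier results of these data known.

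Kept barcodes had over 600 and below 7500 genes, a mt- share (13 mRNAs) below 20% and at least 1 YFP UMI. They were normalised with sctransform 0.4.2 and clustered in Seurat 5.3.0 (8 dimensions, resolution 0.2; R 4.3.3) into 8 clusters, which were named from marker lists as 7 classes. Counts were summed per library, class and mt- share group and divided by the summed UMIs (CPM). Exact Poisson intervals of levels, exact binomial intervals of ratios and Clopper-Pearson intervals of shares (95%) were computed with scipy 1.17.1. The intervals of levels and ratios were checked on simulated Poisson counts, the model they assume, and those of shares were not checked. All these intervals leave out variation between mice, and no test could be made. For ratios against a group with 0 UMIs, 3 UMIs over the group were the floor. Genes with at least 50 UMIs in both groups together formed the background, and list genes named by rank needed 100. Genes named were the 9 members, Opa1, the up to 3 genes of each list with the highest and the up to 3 with the lowest ratio, and for each member the genes nearest in log2(CPM + 10) over classes and libraries. The 12 lists were other mTORC1 brakes, mTORC1 core, autophagy initiation, ATG8 and conjugation, other receptors, other mitophagy genes, lysosome, and targets of HIF, glucocorticoids, ATF4 and FOXO, and immediate early genes. Some list genes are not reported here.

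Scrublet (in scanpy 1.11.5) marked 3 of 1790 and 1 of 3764 cells (0.168 and 0.0266%), which is too few to have worked, so cells above 3 times the median UMIs were left out as an alternative. Other alternatives were the mt- share boundaries, no YFP filter, CPM without mt- transcripts, the mean of each cell's CPM, clustering of lineage cells alone, resolution 0.4, normalization, thinning to 1500 UMIs, centring, mt- limit of 10% and clustering without the genes compared. Gm20388, which overlaps Map1lc3b on the same strand, had 0 UMIs. Gene positions came from the GENCODE annotation of GRCm38, the same build as mm10, and promoters from RefSeq (GRCm38.p6).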

Additional observations from a re-analysis of the deposited data

Results flagged for a closer look

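The Ddit4 difference between the libraries ran in opposite directions in different classes. Its log2 ratio, Opa1 cKO over CT, was 0.14 in NSC pool-like cells, 1.04 in progenitor- and neuron-like cells and −1.25 in oligodendrocyte-like cells, where the interval lay wholly below 0. Oligodendrocyte-like cells of low mt- share numbered 0 in both libraries. The difference between classes was not tested, as there was 1 library per genotype.

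Cells without a YFP UMI, which the comparisons above leave out, also differed between the libraries in Sesn2 and Eif4ebp1, in the same direction and with smaller ratios. In NSC pool-like cells without a YFP UMI, Sesn2 was at 7.68 CPM in CT against 23.9 CPM in Opa1 cKO, with a log2 ratio of 1.64 (95% counting interval 1.04 to 2.27), and Eif4ebp1 was at 25.4 and 115 CPM, a ratio of 2.18 (1.86 to 2.50), beside 1.85 and 2.81 in the cells with a YFP UMI. These cells included 4 CT and 553 Opa1 cKO cells of low mt- share, and Opa1 had a ratio of −1.07 in them. The sort was for YFP, so a missing UMI does not show that a cell had not recombined, and the difference was not tested.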

How the results depend on the processing

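Of the medians and counts over the members, 89 of 97 recomputed values stayed near the reported value, 7 moved and 1 changed sign. Of the single members, 583 of 599 stayed near, 14 moved and 2 changed sign. A ratio stayed near if it lay in the reported counting interval (for a median, that of the middle member), and a count if within 1.5-fold. Changes of sign were counted only where the reported ratio was at least 1.5-fold either way. Smaller ratios could thus cross 0 and still count as near, as Ddit4 did in activated NSC-like cells (0.15 reported, −0.67 to 0.27 recomputed). In NSC pool-like cells, the 5 members at least 1.5-fold higher in Opa1 cKO became 3 with the mean of each cell's CPM and 2 with ratios set against the median of genes with at least 300 UMIs. Under the latter, low over normal mt- share gave a median of 0.30 in place of 0.57 and a count of 2 in place of 4. In activated NSC-like cells, with 11 CT cells, the median of 0.64 became 0.31 with the mean of each cell's CPM, 0.23 with log-normalization before clustering, 0.38 when set against the median and −0.045 when cells were thinned. There Gabarapl1 changed sign to −0.31 when thinned and Pink1 to −0.11 with log-normalization. An activated class taken from clustering of the lineage alone, an alternative chosen after seeing the data, held 49 CT and 285 Opa1 cKO cells and gave a median of 0.57, and leaving out cells whose barcode occurs in both libraries was also added then. Without the YFP filter and when clustering without the genes compared, no activated cluster formed, so these gave no value. No replicate could be left out and no test made with 1 library per genotype, and the cause of none of these shifts was tested. No paired analysis was possible because each group had 1 library. Depth limited Sesn2 most, with 38 UMIs in CT NSC pool-like cells and 3 or fewer in each other CT class.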

Other observations

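In CT NSC pool-like cells alone, the members did not share 1 pattern along the mt- share. From cells with 2 to 3% mt- transcripts through 3 to 5% and 5 to 8% to those with 8 to 20%, Sqstm1 was at 198, 193, 164 and 122 CPM. Its intervals at 3 to 5% (170.2 to 218) and at 8 to 20% (95.7 to 153) did not overlap. Ddit4 was at 154, 218, 183 and 147 CPM, highest in the second of these bins, and Pink1 at 52.7, 73.3, 87.8 and 75.8 CPM, lowest in the first, where it rested on few UMIs (27.2 to 92.0). Eif4ebp1 lay between 25.9 and 32.2 CPM with overlapping intervals. These differences were not tested.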
